A study of Rattus with 27 samples.

Results

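The mitochondrial respiratory chain genes described here are 76 of the 14506 genes measured on the arrays. They were chosen by name alone, as every gene of the platform's probe table whose symbol marks it as a subunit of NADH dehydrogenase (Nduf with a, b, c, s or v and a number), succinate dehydrogenase (Sdh), the cytochrome bc1 complex (Uqcr), cytochrome c oxidase (Cox) or ATP synthase (Atp5). Ndufab1 does not match and was read with the assembly factors. This naming rule uses no measured value, apart from the probe with the highest mean for a gene with several probes. The rule was set with earlier results of these data known. By complex, 33 genes belong to complex I, 4 to complex II, 7 to complex III, 16 to complex IV and 16 to complex V, which here includes Atp5if1, an inhibitor of ATP synthase. Of the 76 genes, 70 lay above the 40th percentile of mean expression over all arrays, and the 6 below it were Cox4i2, Cox6b2, Cox6c-ps1, Cox8b, Cox8c and Ndufa10. Cox6c-ps1 and Ndufs6-ps1 are annotated as pseudogenes in RefSeq, and 35 of the 76 genes have a pseudogene of their name there. Values for these genes may include signal from such copies.

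Complexes I to IV of the inner mitochondrial membrane pass electrons from NADH and succinate to oxygen and, apart from complex II, pump protons as they do so. Complex V uses the proton gradient to make ATP. Most subunits are encoded in the nucleus, as all the genes here are, and the brain, which depends heavily on oxidative metabolism, is among the tissues in which this chain fails early when blood flow stops.

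RNA had been taken from the brain, spleen and white blood cells of 9 Sprague Dawley rats at 6 h, with 1 array for each tissue of each rat. Brain and spleen were homogenized, so each value averages over all cells of the sample, and fewer cells of a type cannot be told apart from less RNA per cell. The sham group (rats 3, 4 and 5) underwent anaesthesia and vessel separation only. The groups labelled model (rats 1, 2 and 3) and vehicle (rats 2, 4 and 5) both underwent middle cerebral artery occlusion, a rat model of ischaemic stroke. A number shared by different groups is not the same rat. By the protocol, occluded rats either served as vehicle controls or received Yiqi Jiedu formulae (YJ, 25 mg/kg), whereas the samples are titled model and vehicle, and the labels do not settle who received YJ. The groups are therefore called model-labelled and vehicle-labelled, and no difference between them is ascribed to YJ or its vehicle. The age and sex of the rats and the sampled side of the brain are not given in the labels used here. Each group held 3 arrays per tissue, which limits the precision, and p-values measure the spread between these rats.

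Values are log2 intensities, with a lowest value of 1.53 and a highest of 13.49 in the deposited table, whose scale was inferred from that range. Tissue identity was visible in defining markers: the synaptic gene Snap25 lay between 11.72 and 12.47 on the brain arrays and at or below 4.07 on all others, and the leukocyte gene Ptprc lay between 10.27 and 10.99 in blood and spleen and at or below 5.08 in brain. The brain arrays of sham 5 and vehicle 2 stood apart, with mean cortical marker levels of 5.40 and 5.83 against 7.62 to 8.28 in the other 7 brains. Sham 5 also had the highest mean of hypothalamic and thalamic markers, 8.27 against 4.66 to 5.90. The medians of the brain group comparisons are therefore also given without these 2 arrays. The white cell array of sham 3 had a median of 5.62 over all genes, against 5.44 to 5.48 on the other white cell arrays. It held the highest value of its group for 60.8% of all genes, and it is part of every comparison with sham white blood cells. The median standard deviation of the respiratory chain genes within a group was 0.15 in brain, 0.15 in white blood cells and 0.16 in spleen, against 0.19, 0.16 and 0.18 over all genes. In brain it ran from 0.084 for Cox6a1 to 0.55 for Cox6a2.

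The clearest pattern was between tissues. In sham rats, 65 of the 76 genes were higher in brain than in spleen by limma at an adjusted p under 0.05 and 0 were lower, where 24.9% of all genes were higher and 26.4% lower. Between brain and white blood cells, 64 were higher in brain and 2 lower, against 26.8% and 28.2% of all genes. Between white blood cells and spleen, 39 were lower in white blood cells and 3 higher, against 17.8% and 16% of all genes. The median log2 difference of the 76 genes was 0.83 for brain minus spleen, 1.22 for brain minus white blood cells and -0.39 for white blood cells minus spleen, where the medians of all genes were -0.02, -0.12 and 0.12. The 3 comparisons share arrays and are not independent of each other. The whole order brain above spleen above white blood cells, with all 3 differences called, was shown by 37 genes, and 25 more were higher in brain than in both other tissues with no call between those.

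**Figure D1:**
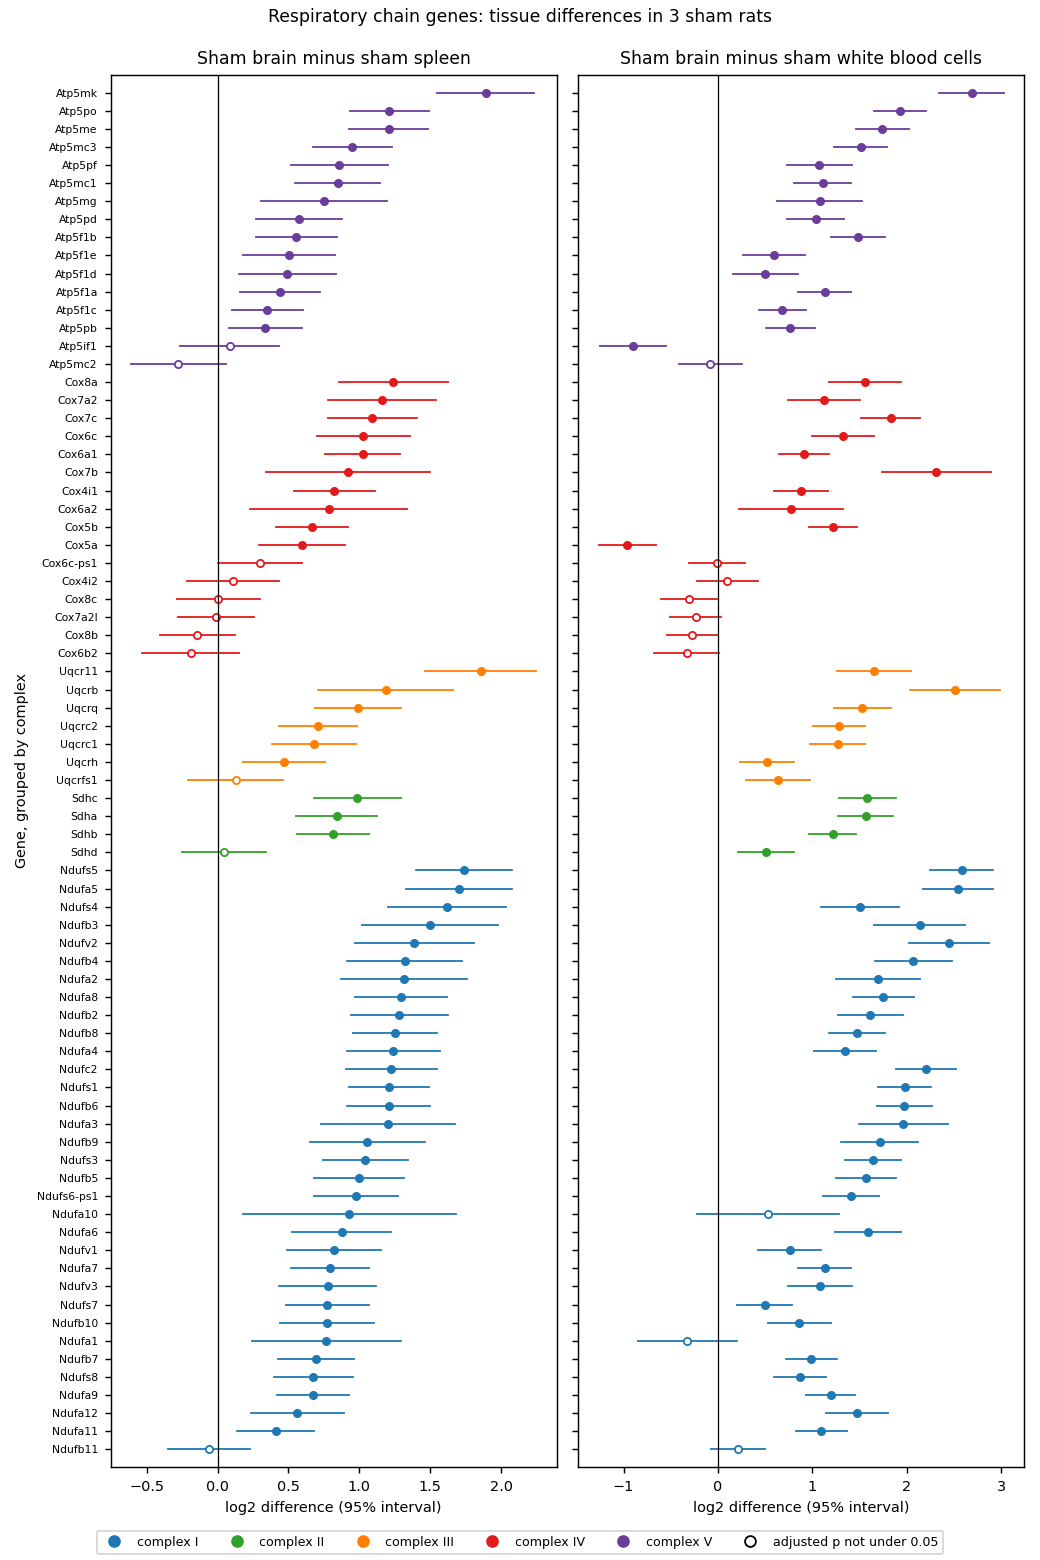
Log2 differences between tissues of the 3 sham rats for each of the 76 genes, with 95% intervals from the limma fit, coloured by complex; filled points have an adjusted p under 0.05. Nearly all points lie to the right of 0, and Cox5a and Atp5if1 are the filled points to the left of 0 in the panel for white blood cells.

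Complex I is the entry point for electrons from NADH. Of its 33 genes, 32 were higher in sham brain than in sham spleen, with a median difference of 1.04, and 30 were higher than in white blood cells, with a median of 1.50. Ndufs5, a small accessory subunit, measured 9.21, 9.49 and 9.56 in the sham brains, 7.46, 7.63 and 7.96 in the sham spleens and 6.92, 6.86 and 6.74 in the sham white blood cells. The brain values thus lay far above both other tissues, by 1.74 ± 0.15 (limma SE) over spleen (3.33-fold, adjusted p = 2.07e-06) and 2.58 ± 0.15 over white blood cells (5.98-fold, adjusted p = 6.69e-08). Ndufa5, another accessory subunit, differed by 1.70 ± 0.17 and 2.54 ± 0.17. The flavoprotein-arm subunit Ndufv2, which carries an iron-sulphur cluster, differed by 1.39 ± 0.19 and 2.45 ± 0.19, while Ndufv1, which binds NADH and the flavin, differed by 0.82 ± 0.15 and 0.76 ± 0.15. Ndufs4, an accessory subunit whose loss causes Leigh syndrome, was 1.62 ± 0.19 higher in brain than in spleen and 1.50 ± 0.19 higher than in white blood cells, with no call between these 2 (0.11 ± 0.19, adjusted p = 0.66). Ndufs1, which holds iron-sulphur clusters of the electron path, was higher by 1.21 ± 0.13 and 1.98 ± 0.13. Ndufb11 was the complex I gene without a call against spleen, at 8.28, 8.17 and 8.50 in brain, 8.30, 8.29 and 8.54 in spleen and 8.21, 8.04 and 8.06 in white blood cells, and its brain and spleen values overlapped. For Ndufv3 the result depended on the probe: the kept probe gave 0.78 for brain minus spleen and the other probe -0.10.

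Complex II, which also belongs to the tricarboxylic acid cycle, had 4 genes. The flavoprotein Sdha measured 9.14, 9.37 and 9.56 in sham brain, 8.49, 8.54 and 8.52 in spleen and 7.68, 7.87 and 7.83 in white blood cells, 3 ranges that did not overlap. Its differences were 0.84 ± 0.13 for brain minus spleen and 1.56 ± 0.13 for brain minus white blood cells. The iron-sulphur subunit Sdhb (0.81 ± 0.11 and 1.21 ± 0.11) and the membrane anchor Sdhc (0.99 ± 0.14 and 1.58 ± 0.14) followed the same order. The other anchor, Sdhd, did not differ by the test between brain and spleen (0.04 ± 0.13, adjusted p = 0.84), with values of 8.50, 8.49 and 8.53 against 8.40, 8.26 and 8.73, but was higher in both than in white blood cells (0.51 ± 0.13 over them in brain). All 4 genes were lower in white blood cells than in spleen.

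Of the 7 complex III genes, 6 were higher in sham brain than in spleen and all 7 were higher than in white blood cells. Uqcr11, a small subunit, measured 10.76, 10.94 and 10.20 in brain, 8.79, 8.82 and 8.72 in spleen and 8.87, 8.92 and 9.14 in white blood cells. It was 3.62-fold higher in brain than in spleen (1.86 ± 0.18, adjusted p = 4.05e-06). Uqcrb, a ubiquinone-binding subunit, showed a graded order, with 10.45, 10.65 and 10.66 in brain, 9.33, 9.39 and 9.48 in spleen and 7.47, 8.35 and 8.41 in white blood cells. Sham 3 was the low white cell array there. The brain level exceeded that in white blood cells by 2.51 ± 0.22 (5.70-fold, adjusted p = 1.55e-06). The Rieske iron-sulphur protein gene Uqcrfs1 differed from spleen by only 0.13 ± 0.15 (adjusted p = 0.56) and from white blood cells by 0.63 ± 0.15 (adjusted p = 0.0042).

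Complex IV, which hands the electrons to oxygen, had the lowest share of genes called between brain and the other tissues. Of its 16 genes 10 were higher in sham brain than in spleen, and 9 were higher and 1 lower than in white blood cells. The 6 genes without a call in any pair were Cox7a2l and, below the expression filter, Cox4i2, Cox6b2, Cox6c-ps1, Cox8b and Cox8c. Every complex IV gene above the filter other than Cox7a2l was called higher in brain than in spleen. Several of its subunits exist as alternative forms from different genes. The general form Cox4i1 was higher in brain (10.45, 10.64, 10.51) than in spleen (9.66, 9.62, 9.85) and white blood cells (9.84, 9.52, 9.61), by 0.82 ± 0.13 and 0.88 ± 0.13. The lung form Cox4i2, known for its response to low oxygen, lay between 2.80 and 3.92 on all 27 arrays, below the expression filter, and its sham tissues overlapped. Cox6a1, the general form, was higher in brain by 1.02 ± 0.12 and 0.91 ± 0.12. Cox6a2, the form of heart and skeletal muscle, was also higher in brain, by 0.78 ± 0.25 (adjusted p = 0.021) and 0.77 ± 0.25 (adjusted p = 0.022). Its brain values of 6.77, 6.02 and 5.69 were widely spread, while spleen gave 5.40, 5.16 and 5.57 and white blood cells 5.67, 5.12 and 5.38. Striated muscle markers averaged 4.95 to 5.11 in the sham brains, 4.53 to 4.71 in the spleens and 4.82 to 5.05 in the white blood cells, and their part in the Cox6a2 levels was not tested. Cox7a2 was higher in brain by 1.16 ± 0.17 and 1.12 ± 0.17 and Cox8a by 1.24 ± 0.17 and 1.56 ± 0.17. The muscle form Cox8b and the testis forms Cox6b2 and Cox8c lay below the filter and had no call in any pair of tissues. Cox7a2l, which helps join complexes III and IV into supercomplexes, was expressed in every tissue without a call: it measured 9.46, 9.61 and 9.78 in brain, 9.72, 9.55 and 9.61 in spleen and 9.92, 9.77 and 9.87 in white blood cells. Its 95% intervals for all 3 tissue differences lay within a 2-fold change. Ndufa4, named for complex I but now assigned to complex IV, was higher in brain by 1.24 ± 0.15 over spleen and 1.35 ± 0.15 over white blood cells.

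Among the 16 complex V genes, 14 were higher in sham brain than in spleen and 14 higher than in white blood cells. Atp5mk, a small membrane subunit, had the largest difference of the 76 genes in both comparisons. It measured 9.18, 9.77 and 9.64 in brain, 7.56, 7.59 and 7.77 in spleen and 6.76, 6.88 and 6.89 in white blood cells, which is 3.71-fold (1.89 ± 0.16) and 6.44-fold (2.69 ± 0.16) higher in brain (adjusted p = 1.18e-06 and 5.61e-08). A second probe of the gene gave 1.95 and 2.77. The catalytic beta subunit Atp5f1b differed by 0.56 ± 0.13 from spleen and 1.48 ± 0.13 from white blood cells. The 3 genes Atp5mc1, Atp5mc2 and Atp5mc3, which encode the same c-ring protein behind different import signals, did not share a pattern. Atp5mc1 was higher in brain by 0.85 ± 0.14 and 1.11 ± 0.14 and Atp5mc3 by 0.95 ± 0.13 and 1.51 ± 0.13. Atp5mc2 had no call, at 10.06, 9.72 and 9.67 in brain, 10.29, 10.08 and 9.91 in spleen and 9.98, 9.99 and 9.72 in white blood cells, and a second probe of it had none either.

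Cox5a, Atp5if1 and Ndufa1 went against the general order and were higher in white blood cells than in spleen. Cox5a, a matrix-side subunit of complex IV, measured 10.65, 10.32 and 10.81 in sham white blood cells, 9.53, 9.69 and 9.68 in brain and 9.06, 9.03 and 9.02 in spleen. The white cell level exceeded spleen by 1.56 ± 0.14 (2.94-fold, adjusted p = 8.55e-06) and brain by 1.95-fold (brain minus white blood cells -0.96 ± 0.14, adjusted p = 0.00010), and a second probe gave 1.53 and -0.92. Cox5b, another complex IV subunit, showed the usual order, at 8.88, 9.12 and 9.10 in brain, 8.39, 8.26 and 8.45 in spleen and 7.79, 7.83 and 7.82 in white blood cells. Atp5if1, which blocks ATP hydrolysis by a reversed ATP synthase, measured 11.66, 11.52 and 11.75 in white blood cells, 10.64, 10.76 and 10.83 in brain and 10.33, 10.69 and 10.95 in spleen. It was higher in white blood cells than in either tissue (0.99 ± 0.16 over spleen, adjusted p = 0.00068; brain minus white blood cells -0.90 ± 0.16, adjusted p = 0.00048), with no call between brain and spleen (0.09 ± 0.16). Ndufa1, a small subunit of the complex I membrane arm, was higher in white blood cells than in spleen by 1.09 ± 0.24 (adjusted p = 0.0050) but did not separate from brain (-0.32 ± 0.24, adjusted p = 0.27). The 4 platelet markers averaged 11.55 to 12.03 in sham white blood cells, 8.69 to 9.59 in spleen and 4.92 to 5.16 in brain. The 9 erythroid markers averaged 7.68 to 8.35, 10.18 to 10.82 and 6.28 to 6.71 in the same order. Their part in these 3 genes was not tested.

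**Figure D2:**
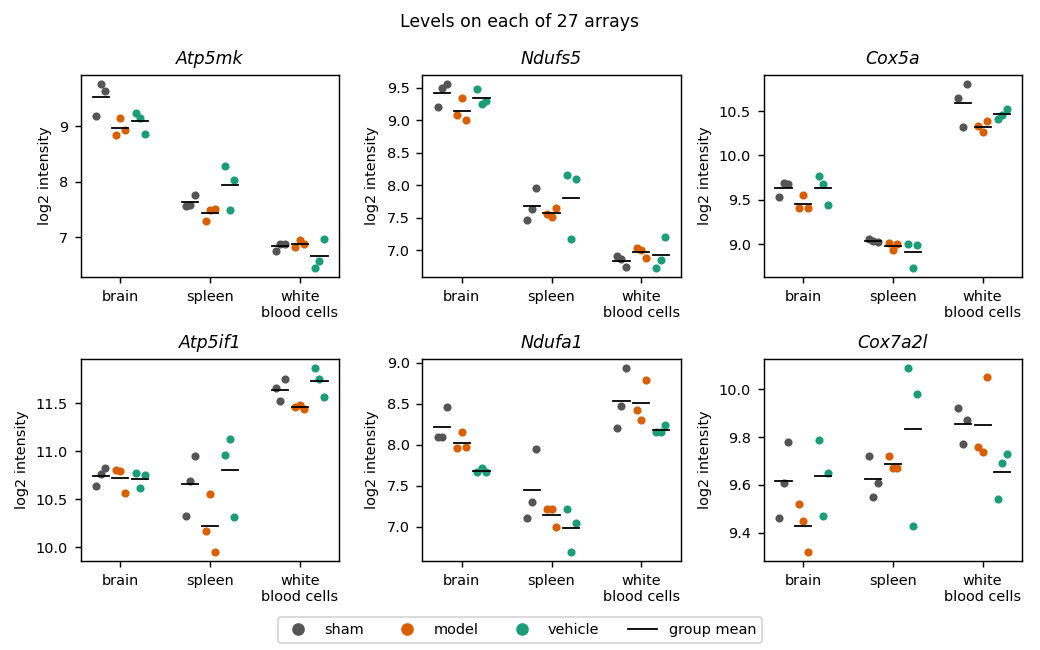
Log2 intensity of 6 genes on all 27 arrays, by tissue and group, with a line at each group mean; each panel has its own scale, which does not start at 0. Atp5mk and Ndufs5 step down from brain to spleen to white blood cells, Cox5a and Atp5if1 are highest in white blood cells in every group, and Cox7a2l overlaps between tissues.

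The rats with occlusion were compared between tissues in the same way. Over all 27 arrays, the 9 brain arrays lay entirely above the 9 spleen arrays for 50 of the 76 genes (18.2% of all genes) and above the 9 white cell arrays for 61 (21.2%). The spleen arrays lay entirely above the white cell arrays for 25 genes (12.2%). In the opposite direction, white blood cells lay entirely above spleen for Atp5if1, Cox5a and Ndufa1 (8.38% of all genes) and entirely above brain for Atp5if1 and Cox5a (19.2%), and spleen lay entirely above brain for 0 genes (19.1%). Tested within the model-labelled rats, 66 genes were higher in brain than in spleen and 1 lower, 68 higher in brain than in white blood cells and 4 lower, and 3 higher in white blood cells than in spleen and 45 lower. Of all genes, 56.1%, 56.3% and 35.3% were called in either direction. In the vehicle-labelled rats the counts were 59 and 1, 64 and 3, and 4 and 29, against 49.5%, 50.9% and 26.2% of all genes. Of the 65 sham calls between brain and spleen, 64 were called in the same direction in the model-labelled and 59 in the vehicle-labelled rats. Of the 66 between brain and white blood cells they numbered 66 and 65, and of the 42 between white blood cells and spleen 39 and 31. Cox5a ranged from 10.26 to 10.81 over the 9 white cell arrays, from 9.41 to 9.77 over the brain arrays and from 8.73 to 9.06 over the spleen arrays. Whether the deposited normalization treated the tissues together is not stated. Taken relative to the median of all genes on the same array, the median of the 76 genes was 3.20 to 3.44 in sham brain, 2.21 to 2.43 in sham spleen and 2.02 to 2.11 in sham white blood cells.

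Between the sham, model-labelled and vehicle-labelled groups, in contrast, limma called 0 of the 76 genes in any of the 9 comparisons. Of all genes, 1.16% were called in brain for model against sham, 0.0483% for vehicle against sham and 0.0551% for vehicle against model. In the same order, 0%, 2.01% and 1.56% were called in white blood cells, and 0.0414%, 0.0483% and 0% in spleen. At an unadjusted p under 0.05 the counts among the 76 were 17, 8 and 7 in brain, where 14.4%, 9.33% and 14.3% of all genes had such a p. They were 2, 8 and 10 in white blood cells (6.07%, 13.4% and 10.9% of all genes) and 4, 7 and 11 in spleen (9.5%, 9.35% and 12.9%). As shares of the 76 the brain counts were 22.4%, 10.5% and 9.21%, those in white blood cells 2.63%, 10.5% and 13.2% and those in spleen 5.26%, 9.21% and 14.5%. The share for model against sham in brain exceeded that of all genes by the most, a difference that was not tested. The 95% intervals are for single genes and are not adjusted for the number of genes, so they do not jointly bound what could have been missed. In each comparison between 74 and 76 of the 76 intervals lay within a 2-fold change in either direction. Median standard errors were 0.13 in brain and white blood cells and 0.14 in spleen.

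**Figure D3:**
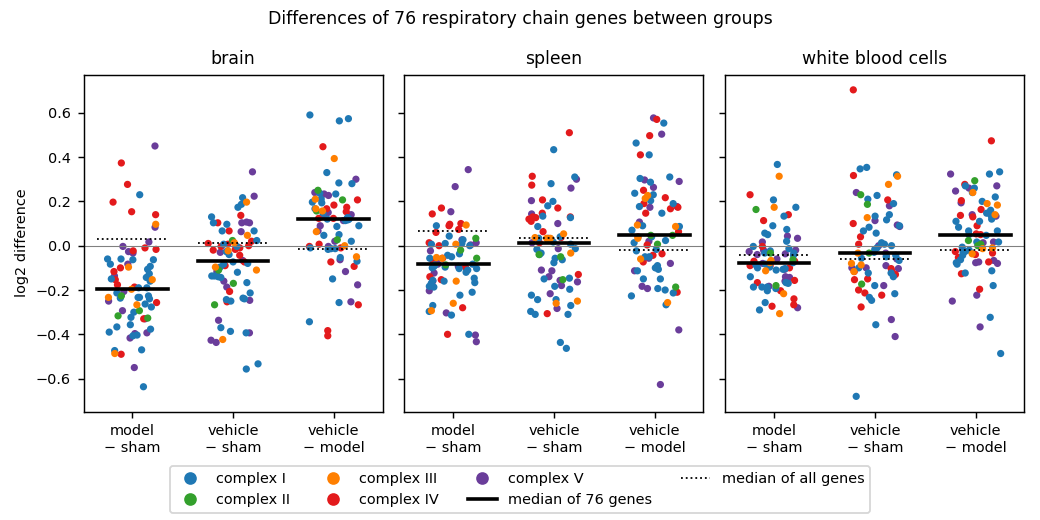
Log2 differences of the 76 genes between groups in each tissue, coloured by complex; the solid line is their median and the dotted line the median of all 14506 genes. The solid line lies lowest for model minus sham in brain, at -0.19, where 66 of the 76 points are below 0.

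In brain, most of the genes were slightly lower in the model-labelled rats than in sham, none by the test. The log2 difference was negative for 66 of the 76 genes and positive for 10, with a median of -0.19 where the median of all genes was 0.03. By complex the medians were -0.23 for I, -0.31 for II, -0.20 for III, -0.06 for IV and -0.17 for V. The median for all 76 stayed negative with quantile normalization (-0.15), median centring (-0.22) and each array left out (-0.25 to -0.15). All 3 model-labelled brains lay below all 3 sham brains for 19 genes and above them for 2, against 8.34% and 11.7% of all genes. Relative to the median of all genes on the array, the 76 genes had medians of 3.20, 3.41 and 3.44 in the sham brains, 3.05, 3.13 and 3.08 in the model-labelled and 3.28, 3.19 and 3.09 in the vehicle-labelled brains. On this scale the model-labelled brains lay below the sham brains, and the vehicle-labelled brains overlapped both. Without the subtraction model-labelled and sham brains overlapped, with a median of 8.875 in model 2 and 8.86 in sham 3. Vehicle-labelled minus sham had a median of -0.07, with 7 genes entirely below sham and 4 above (5.45% and 7.93% of all genes), and vehicle-labelled minus model-labelled had a median of 0.12, with 10 above and 3 below (10% and 11.5%). Single arrays moved both medians: the first ranged from -0.125 without vehicle 2 to -0.03 without vehicle 4, and each of its 6 arrays moved it by over 1.5 times. The second was 0.07 without vehicle 2, 0.07 without model 1 and 0.19 without model 2. Without sham 5 and vehicle 2 the 3 brain medians were -0.15 for model minus sham, -0.075 for vehicle minus sham and 0.07 for vehicle minus model, with 0 genes called in each.

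**Figure D4:**
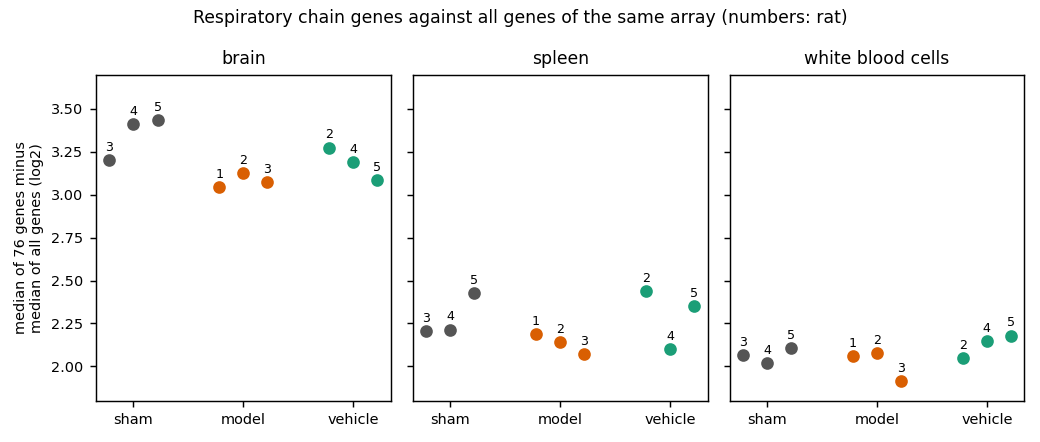
Median of the 76 genes minus the median of all genes on the same array (log2), for each of the 27 arrays, labelled by rat number. The 3 model-labelled brains lie between 3.05 and 3.13, below the sham brains at 3.20 to 3.44, the model-labelled spleens lie at 2.08 to 2.19, just below the sham spleens at 2.21 to 2.43, and the groups overlap in white blood cells. Without the subtraction the model-labelled and sham medians overlap in brain and spleen too.

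Uqcrb, of complex III, had the smallest p in that first brain comparison. It measured 10.45, 10.65 and 10.66 in the sham brains, 10.05, 10.10 and 10.15 in the model-labelled and 10.38, 10.17 and 9.94 in the vehicle-labelled brains. Both occlusion groups lay below sham, by -0.49 ± 0.13 (adjusted p = 0.145) and -0.42 ± 0.13 (adjusted p = 0.329). Ndufb6, of the complex I membrane arm, measured 7.16, 7.24 and 7.47 in sham, 6.84, 6.93 and 6.69 in model-labelled and 7.48, 7.55 and 7.15 in vehicle-labelled brains. Only the model-labelled group stood apart, at -0.47 ± 0.14 against sham (adjusted p = 0.188) and with a vehicle-labelled minus model-labelled difference of 0.57 ± 0.14 (adjusted p = 0.176). Ndufv2 was similar, at 9.91, 10.29 and 10.48 in sham, 9.44, 9.90 and 9.43 in model-labelled and 10.38, 10.16 and 9.92 in vehicle-labelled brains (model minus sham -0.64 ± 0.19, adjusted p = 0.191).

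Ndufa8, an intermembrane-space subunit of complex I, gave the smallest p between the occlusion groups. It measured 10.44, 10.26 and 10.24 in the vehicle-labelled brains, 9.77, 9.65 and 9.75 in the model-labelled and 9.96, 10.08 and 10.34 in the sham brains. The difference between the occlusion groups was 0.59 ± 0.13 (95% interval 0.31 to 0.87, adjusted p = 0.141), and the sham values lay above all model-labelled values and overlapped the vehicle-labelled ones. Uqcrc1, a core protein of complex III, measured 8.83, 8.80 and 8.74 against 8.40, 8.41 and 8.38 in the same groups (0.39 ± 0.11, adjusted p = 0.201). Ndufa1 showed another order, with 8.09, 8.10 and 8.46 in sham, 7.96, 8.15 and 7.97 in model-labelled and 7.67, 7.71 and 7.67 in vehicle-labelled brains. The vehicle-labelled values lay below both other groups (against sham -0.53 ± 0.13, adjusted p = 0.181). Ndufs6-ps1, whose name marks a pseudogene of a complex I subunit, lay below sham in both occlusion groups, by -0.39 ± 0.12 in the vehicle-labelled one (adjusted p = 0.296).

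Atp5f1d, the delta subunit of the ATP synthase rotor, went the opposite way to most of the genes in brain; it was singled out after its values were seen. It measured 10.35, 10.17 and 9.78 in sham, 10.58, 10.53 and 10.54 in model-labelled and 10.38, 10.51 and 10.41 in vehicle-labelled brains, so both occlusion groups lay above all sham values. Sham 5 was the lowest array, and the difference was 0.45 ± 0.14 for model minus sham (adjusted p = 0.213) and 0.33 ± 0.14 for vehicle minus sham (adjusted p = 0.522).

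**Figure D5:**
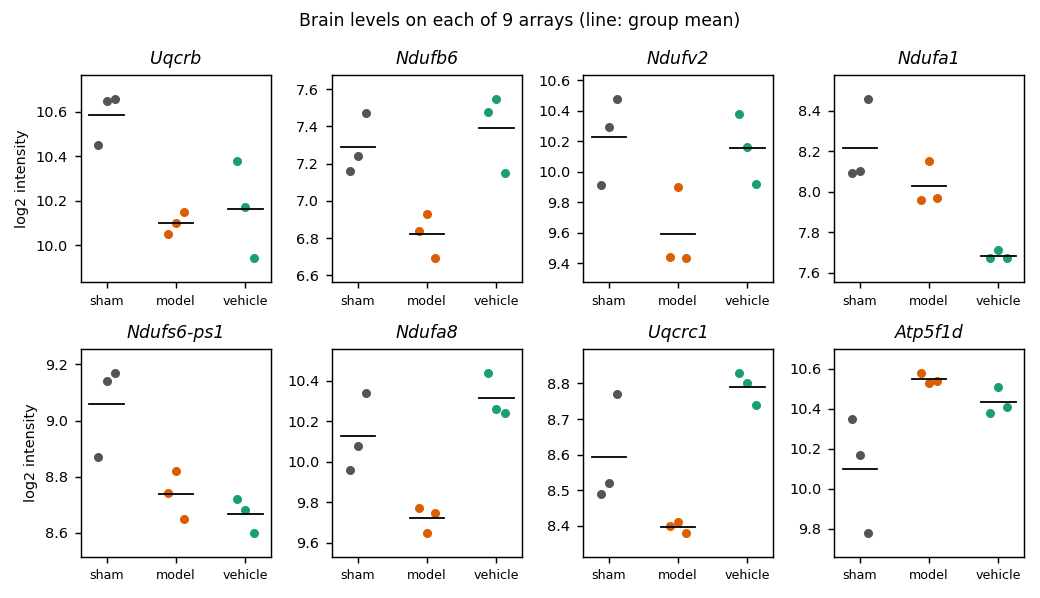
Log2 intensity of 8 genes on each of the 9 brain arrays, with a line at each group mean; each panel has its own scale, which does not start at 0. The model-labelled arrays are the lowest for Ndufb6, Ndufa8 and Uqcrc1, the vehicle-labelled arrays the lowest for Ndufa1, and the sham arrays the lowest for Atp5f1d.

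Cell-type markers varied between the same brains. Oligodendrocyte markers averaged 7.95 to 8.67 in sham, 7.11 to 8.52 in model-labelled and 8.66 to 9.39 in vehicle-labelled brains, with 0 of 9 called. Neuron markers averaged 8.72 to 9.55, 9.29 to 9.71 and 9.31 to 9.62, and astrocyte markers 9.02 to 9.14, 8.85 to 9.10 and 9.05 to 9.26, again with 0 called. Microglia markers were higher in sham, at 6.77 to 7.04, 6.38 to 6.71 and 6.21 to 6.74. Neutrophil markers averaged 4.20 to 4.41, 4.71 to 4.93 and 4.38 to 4.56, and choroid plexus markers 4.18 to 4.33, 4.45 to 6.43 and 4.11 to 5.10. Monocyte, red pulp macrophage, striated muscle and brown fat markers also averaged higher in every model-labelled than in every sham brain. The part of these cell types in the respiratory chain values was not tested.

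In white blood cells, model-labelled minus sham had a median of -0.08 (all genes -0.04), or -0.05 without sham 3, with 58 of the 76 differences negative and a smallest adjusted p of 0.80. The model-labelled arrays lay entirely below sham for 6 genes and above for 0 (6.38% and 4.69% of all genes). The smallest p values were those of Uqcrq (-0.31 ± 0.13, adjusted p = 0.799), Cox6c (-0.27 ± 0.12, adjusted p = 0.799) and Atp5mg (-0.28 ± 0.13, adjusted p = 0.818). Vehicle-labelled minus sham had a median of -0.03 (all genes -0.06), which turned to 0.03 with each array centred on its median and ranged from -0.08 without sham 4 to 0.01 without sham 3, with 8 genes entirely above and 7 below (5.38% and 9.89%). Atp5me, a membrane subunit of ATP synthase, came nearest to the threshold of all group comparisons. It measured 7.37, 7.34 and 7.27 in sham, 7.32, 7.07 and 7.11 in model-labelled and 6.91, 6.87 and 6.97 in vehicle-labelled white blood cells. The vehicle-labelled values lay below both other groups, by -0.41 ± 0.11 against sham (95% interval -0.65 to -0.17, adjusted p = 0.088). Ndufa10, below the expression filter, differed by -0.68 ± 0.23 with overlapping groups (adjusted p = 0.197).

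Between the vehicle-labelled and model-labelled white blood cells the median was 0.05 (all genes -0.02), or 0.01 without vehicle 5 and 0.03 without model 3, with 16 genes entirely above and 4 below (8.52% and 10.4%). Atp5mc2 measured 9.54, 9.65 and 9.50 in vehicle-labelled, 10.07, 9.84 and 9.88 in model-labelled and 9.98, 9.99 and 9.72 in sham white blood cells, and the vehicle-labelled arrays lay below both other groups. Its difference from model-labelled was -0.37 ± 0.12 (adjusted p = 0.220). Ndufa8 differed by 0.33 ± 0.12 (adjusted p = 0.279) and Cox5b by 0.28 ± 0.10 (adjusted p = 0.321). In the same arrays all 9 erythroid markers rose from sham to vehicle-labelled, averaging 7.68 to 8.35 in sham, 8.48 to 8.62 in model-labelled and 9.87 to 10.66 in vehicle-labelled rats, and 6 of 13 neutrophil markers rose. Their part in the respiratory chain values was not tested.

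In spleen the model-labelled arrays lay entirely below sham for 9 genes and above for 4 (3.96% and 13.4% of all genes), with a median of -0.08 where all genes had 0.07. The array of sham 5 was the highest sham spleen for 57 of the 76 genes (35.6% of all genes), and without it the median was -0.015. Without model 3 it was -0.05. Relative to the median of all genes on the array, the 76 genes had medians of 2.21, 2.22 and 2.43 in the sham spleens, 2.19, 2.14 and 2.08 in the model-labelled and 2.44, 2.10 and 2.35 in the vehicle-labelled spleens. On this scale the model-labelled arrays lay just below sham and the vehicle-labelled arrays overlapped both. Without the subtraction the model-labelled medians (7.85, 7.96 and 7.755) overlapped those of sham (7.875, 7.885 and 8.115). Cox7b, a small complex IV subunit, measured 8.58, 8.45 and 8.71 in sham, 8.21, 8.16 and 8.17 in model-labelled and 8.97, 8.53 and 8.75 in vehicle-labelled spleens. Its model-labelled values lay below both other groups, at -0.40 ± 0.14 against sham (adjusted p = 0.394). Uqcrb was lower by -0.29 ± 0.12 and Atp5mc2 higher by 0.34 ± 0.15 (adjusted p = 0.493 for both). Vehicle-labelled minus sham had a median of 0.01 and the smallest p for Cox7c (0.51 ± 0.19, adjusted p = 0.455), Ndufa3 (-0.44 ± 0.17, adjusted p = 0.459) and Ndufa6 (0.43 ± 0.17, adjusted p = 0.466), all with overlapping groups, and 2 genes lay entirely above and 9 below (7.49% and 5.69%). The vehicle-labelled spleens were the most uneven group. The array of vehicle 2 was the highest of its group for 61 of the 76 genes (40.7% of all genes) and vehicle 4 the lowest for 57. Without vehicle 2 the median of vehicle-labelled minus sham turned to -0.07 and that of vehicle-labelled minus model-labelled from 0.05 to -0.03. Without vehicle 4 they were 0.07 and 0.12, and without model 2 the latter was 0.09. The spleen of vehicle 2 also had the highest mean of exocrine pancreas markers, 5.56 against 4.51 to 4.90 in the other spleens, and their part in the values was not tested.

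Vehicle-labelled minus model-labelled in spleen gave 8 genes entirely above and 5 below (3.5% and 11.2%). Atp5mc2 measured 10.00, 9.55 and 9.88 in vehicle-labelled, 10.42, 10.43 and 10.46 in model-labelled and 10.29, 10.08 and 9.91 in sham spleens. The model-labelled values lay above both other groups, and the vehicle-labelled minus model-labelled difference was -0.63 ± 0.15 (adjusted p = 0.181), with -0.63 from a second probe. Cox7b differed by 0.57 ± 0.14 (adjusted p = 0.181) and Ndufv2 by 0.46 ± 0.14 (adjusted p = 0.207).

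Some genes kept the same side in the 3 tissues of the same rats. Between vehicle-labelled and model-labelled rats, Cox5b and Cox7b were entirely above in brain, white blood cells and spleen, which held for 0.152% of all genes, and 8 of the 76 genes were above in at least 2 tissues and below in none, against 2.22%. In the opposite direction, Atp5f1d, Atp5mc2 and Ndufa1 were entirely below in at least 2 tissues and above in none, against 4.78% of all genes. Cox7b measured 9.64, 9.31 and 9.42 against 8.76, 9.29 and 8.98 in brain and 7.69, 8.03 and 7.95 against 7.59, 7.56 and 7.10 in white blood cells, with differences of 0.45 ± 0.16 and 0.47 ± 0.25. The gaps between the nearest arrays of the 2 groups were small, and the adjusted p was 0.277 in brain and 0.563 in white blood cells. Cox5b differed by 0.17 ± 0.11 in brain, 0.28 ± 0.10 in white blood cells and 0.19 ± 0.12 in spleen. Between model-labelled and sham rats, 8 genes (Atp5mk, Atp5pd, Cox6c, Cox7a2, Ndufa2, Ndufv2, Uqcrb and Uqcrq) were entirely below in at least 2 tissues and above in none, against 1.37% of all genes, and Atp5f1d was the gene entirely above in 2, against 3.67%. These genes were picked out by their values, and none of the differences was called.

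Whether an effect differed between tissues was tested directly. Limma called 0 of the 76 genes in any of the 6 comparisons of effects. For model minus sham, 1.07% of all genes were called in white blood cells against brain, 0.82% in spleen against brain and 0% in white blood cells against spleen, and for vehicle minus sham 0.862%, 0.145% and 0.772% in the same order. At an unadjusted p under 0.05 the counts among the 76 for model minus sham were 9, 3 and 1, where 12.4%, 11.8% and 5.94% of all genes had such a p. For vehicle minus sham they were 3, 3 and 4, where 9.94%, 9.58% and 11.3% had one, so each count was a smaller share of the 76 than of all genes. The smallest adjusted p was that of Ndufv2, 0.149, for model minus sham in white blood cells against brain.

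Other mitochondrial and metabolic genes were read from lists kept apart from the 76. The counts below stand beside 24.9% of all genes called higher in sham brain than in sham spleen and 26.4% called lower. In sham rats the brain level over spleen was shared by the tricarboxylic acid cycle and pyruvate entry genes, of which 15 of 18 were higher in brain and 0 lower (median 0.80), for example Idh3a, a subunit of isocitrate dehydrogenase (1.70 ± 0.13). Of 34 genes listed for assembly and maturation of the respiratory complexes, which include Ndufab1, 19 were higher and 1 lower. Of 20 electron carriers and other entry points 10 were higher and 1 lower, including the electron carrier cytochrome c, Cycs (1.28 ± 0.14), which was higher. Of 18 glycolysis genes 15 were higher and 2 lower. The mitochondrial ribosome list was less one-sided, with 24 of 68 higher and 3 lower (median 0.25). Regulators of mitochondrial biogenesis were mixed, with 4 of 17 higher and 8 lower: the coactivator Ppargc1a was higher in brain (3.83 ± 0.14) and the transcription factor Nrf1 lower (-1.48 ± 0.11). Among 11 uncoupling and nucleotide carriers, 6 were higher, including the adenine nucleotide carrier Slc25a4 (2.28 ± 0.14), and 2 lower, including the uncoupling protein Ucp2 (-3.38 ± 0.17).

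Between groups, calls in these lists were few. Of all genes, 1.16% were called in brain for model against sham. In white blood cells 2.01% were called for vehicle against sham and 1.56% for vehicle against model. In brain, Coq10b, which binds coenzyme Q, rose from a mean of 6.71 in sham to 8.20 in the model-labelled rats (1.49 ± 0.23, adjusted p = 0.015), as the single call among the 20 electron carrier genes. Of 19 genes of the hypoxic switch of respiration and mitophagy, the glucose transporter Slc2a1 (1.17 ± 0.14) and the glycolytic regulator Pfkfb3 (1.03 ± 0.19) rose and the mitophagy receptor Bnip3 fell (-0.65 ± 0.12) in the same comparison. In white blood cells 4 genes of that list rose from sham to vehicle-labelled rats: the oxygen-sensing hydroxylase Egln3 (1.10 ± 0.14), the mitophagy receptor Bnip3l, which acts in red cell maturation (1.01 ± 0.16), the iron-sulphur scaffold Iscu (0.93 ± 0.17) and the kinase Pdk3 (0.53 ± 0.12). The glycolytic enzyme Tpi1 rose there too (0.63 ± 0.15), beside the rise of all 9 erythroid markers given above, and the part of red cell RNA was not tested. Egln3, Bnip3l and Iscu also rose against the model-labelled rats. The tricarboxylic acid cycle, assembly factor, biogenesis, carrier and mitochondrial ribosome lists had 0 calls by limma in the 9 group comparisons. The mitochondrial ribosome list had a median of -0.29 for model minus sham in brain, beside -0.19 for the 76 respiratory chain genes.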

How the data were processed

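Rat Gene arrays of 27 samples were used as deposited: the authors processed them with RMA, per the submitters' processing notes, in a version not given in the sources used here, and the deposited values were read as log2 intensities from their range. Probes with 1 gene symbol were kept (15310 of 27596), and for genes with several probes (11 of the 76) the probe with the highest mean over 27 arrays, which left 14506 genes. Groups and rat numbers came from the sample titles. Fits used limma 3.58.1 (R 4.3.3), with a mean per group over the 9 arrays of a tissue, 6 residual degrees of freedom and 2-sided tests; sham tissues were fitted over the 9 sham arrays and differences between tissues over all 27. P-values were adjusted by Benjamini-Hochberg over all genes and called under 0.05. The fit was tested on simulated data with planted changes larger than the named differences between groups. That test does not show how well smaller differences would be found. The 76 genes, the other lists, the tests and the alternatives were chosen with earlier results of these data known. Named genes were drawn from the 8 largest called differences each way between sham tissues, the 3 smallest p where none was called, the isoforms, the Sdh genes and Atp5if1, and up to 4 called genes per other list. Others are examples by role. Not all genes so selected are described: the large tissue differences of Ndufb3, Ndufb4, Ndufc2 and Ndufa12, for example, are left out. Residuals of the same rat correlated across tissues with a median r of 0.13 (15 of 27 pairs over 0.1), against -0.05 between different rats. Residuals sum to 0 within a group, so these medians are not independent of each other. In the vehicle-labelled group the median for the same rat was 0.03 (3 of 9 pairs over 0.1). The pairing of tissues by rat number rests on the titles, and the number was not used to pair rats across groups. The main fits hold no term for the rat, so tissues of the same rat were treated as independent arrays in comparisons between tissues. Other subunits were not analysed here, apart from Ndufab1 in the list of assembly factors.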

Additional observations from a re-analysis of the deposited data

How the results depend on the processing

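The 29 largest called tissue differences, up to 8 each way for each pair of sham tissues, kept their direction and call under every alternative run. Less marked genes are not covered by this. Many tissue differences described above, such as those of Cox6a2 and Ndufv3, are outside these 29. With median centring, 38 genes were called for blood minus spleen, including 33 of the 42 main calls. Brain minus spleen then had 66 and brain minus blood 69, each with 65 of the main calls. With no array left out, the blood minus spleen median ran from -0.44 to -0.23, beside -0.39 in the main fit. That of brain minus blood ran from 1.08 to 1.28, beside 1.22. Called genes numbered 58 to 66 for brain minus spleen, 64 to 67 for brain minus blood and 29 to 42 for blood minus spleen with 1 array left out, the 29 without the spleen of sham 5. With the rat as a replicate block they were 65, 66 and 41. No counts over all genes are given here for these tissue alternatives. Between groups the block was the replicate number, which is not the same rat in different groups; it gave 0 called in each comparison and moved the median for vehicle minus model in brain from 0.12 to 0.05. Between groups, quantile normalization, median centring, the expression filter, the mean of all probes, a variance trend with robust prior and leaving out an array also gave 0 called in all 9 comparisons. A fit of all 27 arrays called 1 gene in brain for model minus sham (Atp5f1d), 1 for vehicle minus model (Ndufa8) and 1 in spleen for vehicle minus model (Atp5mc2). Of all 14506 genes that fit called 557, 346 and 107 in the same order, beside 168, 8 and 0 in the main fits. Array weights gave the sham 5 and vehicle 2 brains the lowest weights of their tissue (0.35 and 0.41). With these weights 5 genes were called in brain for model minus sham (Atp5mk, Atp5pd, Cox7b, Ndufv2 and Uqcrb), 3 for vehicle minus sham (Atp5me, Ndufa1 and Uqcrb) and 1 for vehicle minus model (Ndufa8). In white blood cells 1 was called for vehicle minus sham (Ndufa10), and 1 for vehicle minus sham in spleen against brain (Atp5mk). Of all genes, 573, 369, 123, 339 and 318 were called in the same order, beside 168, 7, 8, 291 and 21 in the main fits. The reason for these calls was not tested. Leaving out 1 array gave 0 to 1 called for vehicle minus sham in blood against brain, the 1 (Ndufa3) without the brain of vehicle 2. Of all genes, 216 were called without that array, beside 125 in the main fit. The test in the rats with occlusion in place of sham was added after seeing the data. The 3 arrays per group limit the precision.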
